A study of Homo sapiens with 12 samples.

Results

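The collagen genes, taken as every gene whose symbol is COL, a number, A and a number, were followed across 12 RNA sequencing libraries. The rule found 44 genes of 23686 in the table, and leaves out antisense genes and others whose symbols only start the same way. The libraries came from 2 cancer cell lines: MDA-MB-231, from a breast cancer, and HCT116, from a colon cancer. A line received control IgG alone, IgG plus the oxidant hydrogen peroxide (H2O2, 100 µM for 8 h), or, in place of IgG, an antibody named anti-Hsp60N plus the same H2O2. Each of the 6 groups had 2 libraries. All cultures had 10% serum, the medium differed between the lines, and no group had the antibody without H2O2. Whether the 2 libraries of a group stem from separate cultures is not stated, and p-values therefore measure only the spread between these libraries, which may be technical.

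Collagens are extracellular proteins built of chains that wind into a triple helix, and each gene encodes 1 kind of chain. Some collagens are made of a single kind of chain and others need different chains in a fixed ratio. Fibrillar collagens form the tensile fibres of connective tissue, the COL4 chains form the sheet of the basement membrane under epithelia, and the COL6 chains form beaded filaments. Others decorate fibrils, anchor the basement membrane or span the plasma membrane. In tissue, fibroblasts make most of the fibrillar collagen, while epithelial cells are known to contribute basement membrane chains.

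The COL4 genes lie in 3 pairs head to head, so that the space between their starts holds the upstream DNA of both. The RefSeq table of promoters (GRCh38.p14, another build than the hg19 of the expression values) matched 32 of the 44 genes. The COL4A1 and COL4A2 starts lay 126 bases apart, those of COL4A4 and COL4A3 418 bases, and those of COL4A6 and COL4A5 379 or 1415 bases, depending on the COL4A6 start. The sequences are shown because paired genes lay on the same side by line, as described below, though a filter on level fixed most of these sides. Each sequence is on the + strand and ends 1 base before the start of the gene read to the right (COL4A2, COL4A3 or COL4A5). Capitals mark the GC box GGGCGG and the CCAAT box CCAAT, searched on both strands together with the TATA box TATAAA, with no overlap between the matches.
COL4A1 to COL4A2, chr13:110307158-110307283: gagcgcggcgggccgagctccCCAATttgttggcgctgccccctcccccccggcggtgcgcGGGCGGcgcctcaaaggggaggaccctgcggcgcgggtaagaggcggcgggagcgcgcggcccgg
Upstream of COL4A3, chr2:227164374-227164623: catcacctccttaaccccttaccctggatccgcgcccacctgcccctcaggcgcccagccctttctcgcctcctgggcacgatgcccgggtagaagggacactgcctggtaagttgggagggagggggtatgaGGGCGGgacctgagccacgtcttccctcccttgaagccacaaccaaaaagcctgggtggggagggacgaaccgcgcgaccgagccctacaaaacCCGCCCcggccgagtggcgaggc
Upstream of COL4A5, chrX:108439588-108439837: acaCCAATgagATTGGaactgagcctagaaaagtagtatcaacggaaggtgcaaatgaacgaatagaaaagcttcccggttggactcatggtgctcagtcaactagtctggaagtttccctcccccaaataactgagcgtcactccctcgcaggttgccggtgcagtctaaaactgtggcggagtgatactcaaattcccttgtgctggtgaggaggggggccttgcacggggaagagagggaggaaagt
The COL4A1 to COL4A2 segment held 1 GC box and 1 CCAAT box. At least 1 GC box was found in 34.6% and at least 1 CCAAT box in 21.1% of 35116 promoter windows of the same length. The COL4A3 window held 2 GC boxes, and the COL4A5 window 2 CCAAT boxes. At least 1 GC box was found in 42.6% and at least 1 CCAAT box in 32% of windows of that length. The share with 2 was not counted. None of the 3 held a TATA box, found in 5.87% of windows of the short length and 10.7% of the longer ones. The COL4A1 to COL4A2 segment had 20 CpG dinucleotides against a median of 6 in windows of its length. The COL4A3 window had 17 and the COL4A5 window 8, against a median of 11.

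Values were in TPM, a unit that corrects for the length of a gene, so that levels of different genes may be compared within a library. TPM sums to the same total in every library, so a value is a share of that total. The number of genes at 1 TPM or more ran from 12411 to 12653 over the libraries. Across genes, on log2(TPM + 1), libraries of 1 group correlated at 0.994 to 0.996. Libraries of the same line in other groups correlated at 0.985 to 0.995, which overlaps that range, and libraries of different lines at 0.787 to 0.796. TPM keeps no read depth, so the depth behind a value is unknown. Markers fitted the lines in part: VIM, a mesenchymal filament gene, ranged over 2233 to 2551 TPM in MDA-MB-231 and 5.06 to 5.81 TPM in HCT116. All 5 mesenchymal-type markers were higher in MDA-MB-231, but CAV1 was also high in HCT116, at 287 to 318 TPM against 357 to 498.5 TPM. CDX2, a transcription factor of gut epithelium, ranged over 12.8 to 17.2 TPM in HCT116 and was listed at 0 in MDA-MB-231. VIL1 and LGALS4, also of gut epithelium, stayed at or below 0.04 and 0.27 TPM in HCT116. The fibroblast marker DCN was listed at 0 in all 12 libraries, and 7 fibroblast markers summed to at most 4.03 TPM in MDA-MB-231 and 0.28 TPM in HCT116. For 5 endothelial markers the sums were at most 5.43 and 0.34 TPM. Immune markers were mixed: PTPRC was at most 0.08 TPM. CD68 ranged over 183 to 204 TPM in MDA-MB-231 and 20.3 to 25.3 TPM in HCT116, and CD14 over 4.16 to 6.46 and 0 to 0.16 TPM.

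Under IgG, 12 collagen genes had a mean of at least 1 TPM in both lines, 7 in MDA-MB-231 alone, 4 in HCT116 alone and 21 in neither. COL6A5 and COL22A1 were listed at 0 in all 12 libraries. For tests, 25 of the 44 genes passed a filter of at least 1 TPM in at least 2 libraries. The other 19 never exceeded 0.4 TPM, a value reached by COL20A1 in 1 HCT116 library. Among them were COL3A1, a fibrillar chain of soft tissue, at 0.02 to 0.15 TPM, and the cartilage chain COL2A1 at 0 to 0.08 TPM. Summed over the 44 genes, collagen TPM was 595 and 665 in the IgG libraries of MDA-MB-231 and 296.6 and 316 in those of HCT116. That was 0.0595% and 0.0665% of all TPM against 0.0297% and 0.0316%. In these IgG libraries, the 5 highest genes held 60.5% and 60.3% of the sum in MDA-MB-231 and 83.3% and 83.4% in HCT116. Over all 6 libraries of a line, they held 60.3% to 62% in MDA-MB-231 and 77.9% to 83.4% in HCT116.

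**Figure D1:**
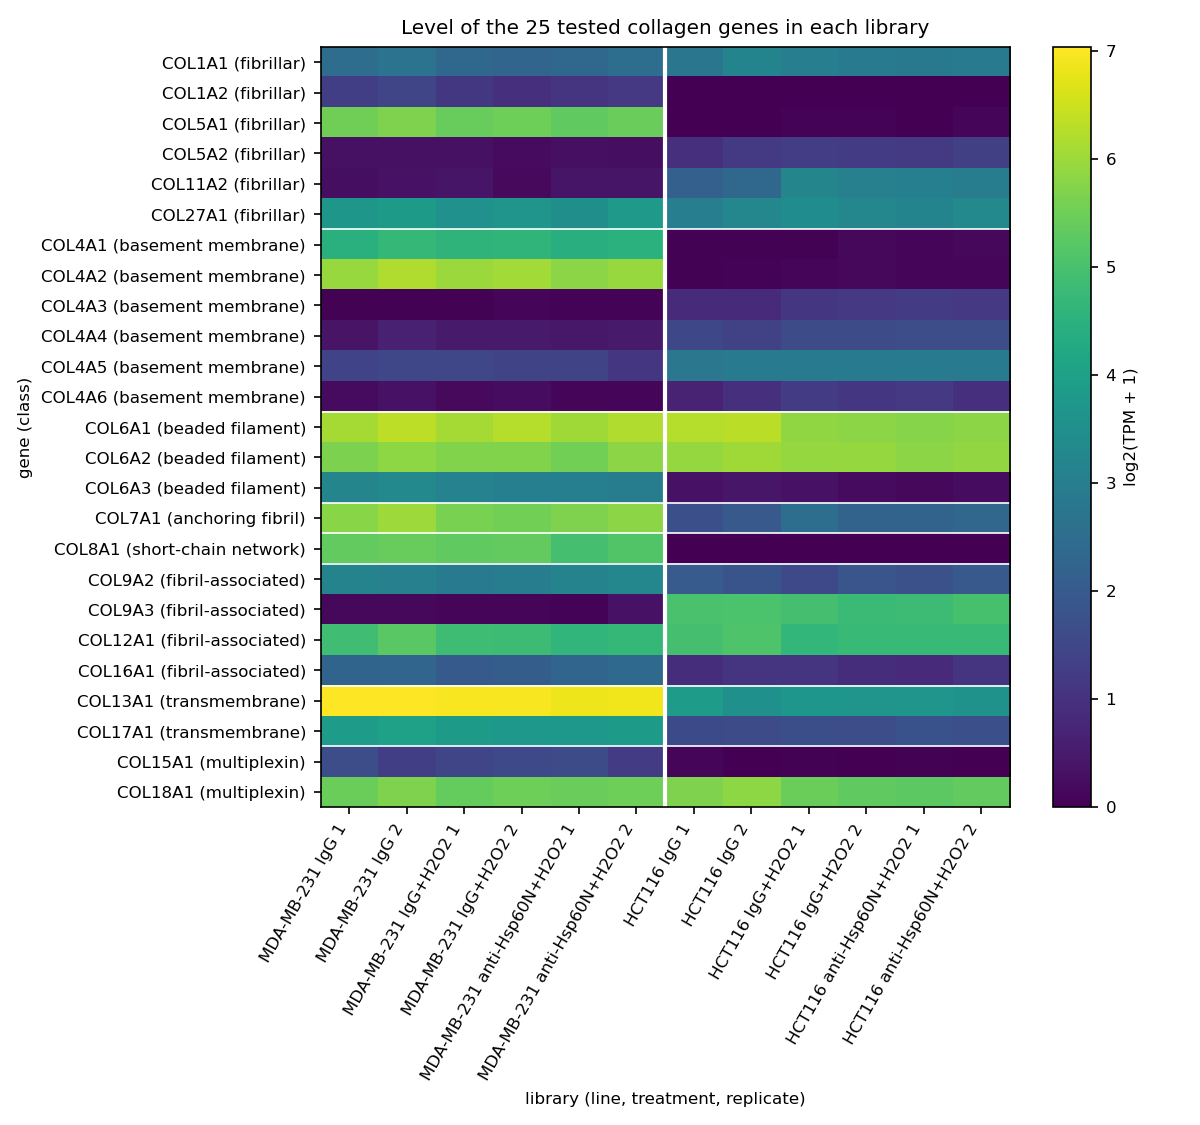
Level of the 25 tested collagen genes (rows, by class) in each of the 12 libraries (columns), as log2(TPM + 1) on a colour scale from 0 upwards. Rows such as COL4A2, COL5A1 and COL8A1 are bright in the 6 MDA-MB-231 columns and dark in HCT116, COL9A3 is the reverse, and COL6A1, COL6A2, COL12A1 and COL18A1 are bright in both.

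The make-up of the sum differed between the lines. Beaded filament chains held 45.4% of collagen TPM in HCT116 under IgG and 21.4% in MDA-MB-231. Transmembrane collagens held 4.64% against 22.9%, basement membrane chains 3.13% against 14.5%, and fibril-associated collagens 22.1% against 7.05%. Multiplexins, the class of COL15A1 and COL18A1, held 17.3% against 7.64%. In TPM, the beaded filament class was similar in both lines (139 and 135 TPM), while the transmembrane class had 14.2 TPM in HCT116 against 144 TPM in the other line.

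**Figure D2:**
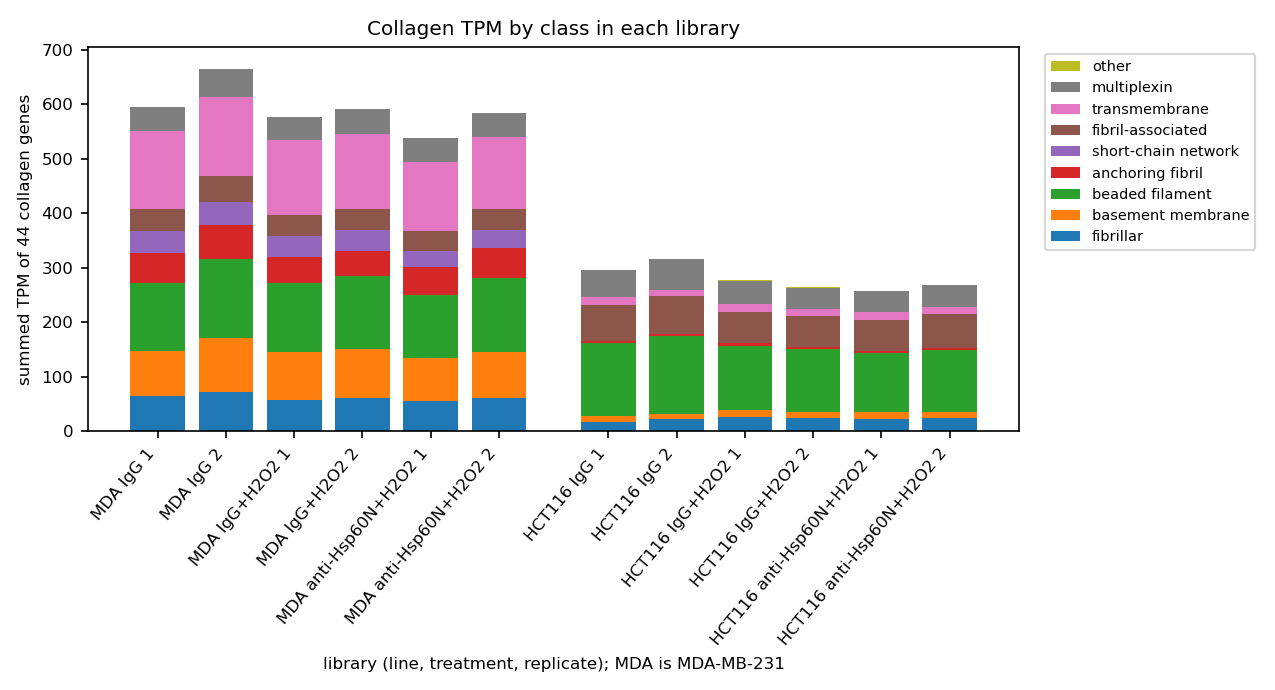
Summed TPM of the 44 collagen genes in each library, stacked by class, with the axis starting at 0. The MDA-MB-231 bars reach 538 to 665 TPM and the HCT116 bars 257 to 316 TPM, and the transmembrane, basement membrane, anchoring fibril and short-chain network segments are thick in MDA-MB-231 alone.

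Under IgG, COL4A1, COL4A2, COL5A1, COL7A1 and COL8A1 were high in MDA-MB-231 and below 3 TPM in HCT116, and COL9A3 was the reverse. A model across all genes (limma on log2(TPM + 1), Benjamini-Hochberg adjustment over 13956 genes, threshold 0.05) called 9 of the 25 tested collagen genes higher and 13 lower in HCT116 under IgG. Over all tested genes it called 45.5% higher and 37.3% lower, 82.8% in all. Many of the 25 passed the filter through 1 line alone and had to differ, so this count is a description. Those of MDA-MB-231 were COL1A2, COL4A1, COL4A2, COL5A1, COL6A3, COL8A1 and COL15A1. Those of HCT116 were COL4A3, COL4A4, COL4A6, COL5A2, COL9A3 and COL11A2. For these genes, p-values between the lines given below are descriptions as well. COL6A1, COL12A1 and COL18A1 were not called. The median difference over all genes was 0.11 on the log2 scale and -0.01 with median-of-ratios scaling, under which 20 of the 25 were called.

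COL4A1 and COL4A2, the main chains of the basement membrane, were on in MDA-MB-231 and near 0 in HCT116. COL4A2 stood at 60.5 and 72 TPM in the IgG libraries of MDA-MB-231 and at 0.02 and 0.05 TPM in those of HCT116 (log2 fold change -6.02, SE 0.09, limma adjusted p = 4.27e-13). COL4A1 stood at 21.3 and 24.7 TPM against 0.02 and 0.03 TPM (log2 -4.55). The other 4 chains went the opposite way. COL4A5, a chain that pairs with COL4A3 and COL4A4 in some basement membranes and with COL4A6 in others, stood at 1.66 and 1.83 TPM in MDA-MB-231 and 5.96 and 6.46 TPM in HCT116 (log2 1.39, limma adjusted p = 2.13e-07). COL4A4 stood at 0.3 and 0.55 against 1.88 and 1.62 TPM (log2 0.95). COL4A3 and COL4A6 were below 1 TPM in both lines under IgG, at 0.8 ± 0.0141 and 0.76 ± 0.255 TPM (SD, n = 2) in HCT116 and 0.025 ± 0.00707 and 0.21 ± 0.0707 TPM in MDA-MB-231. Each head-to-head pair lay on the same side: COL4A1 and COL4A2 higher in MDA-MB-231, COL4A3 and COL4A4 as well as COL4A5 and COL4A6 higher in HCT116. All of these but COL4A5 passed the filter through 1 line alone, which fixed their side, so this is a description. Any part of the upstream DNA in it was not tested. The level of COL4A2 was 2.72 to 2.92 times that of COL4A1 over the 6 MDA-MB-231 libraries. RHBDD1 overlaps COL4A4 and lay at 5.48 to 6.91 TPM in MDA-MB-231 and 19.5 to 27.6 TPM in HCT116. No source used here gives the strand setting of the libraries, and the part of reads from RHBDD1 in the COL4A4 value was not tested.

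Partner chains of the fibrillar collagens were unequal between the lines. COL5A1, whose chain starts the assembly of collagen fibrils, stood at 44.9 and 50.4 TPM in MDA-MB-231 and at 0 and 0.01 TPM in HCT116 under IgG (log2 -5.59, limma adjusted p = 3.54e-13). COL5A2, its partner chain, stood at 0.24 TPM in both MDA-MB-231 libraries and at 0.94 and 1.28 TPM in HCT116 (log2 0.76, limma adjusted p = 5.54e-05). COL1A1, the main chain of bone and skin collagen, was low in both lines, at 4.77 and 5.35 TPM in MDA-MB-231 and 5.85 and 8.09 TPM in HCT116. The call of COL1A1 as higher in HCT116 (log2 0.38, limma adjusted p = 0.0155) ended without HCT116 IgG replicate 2 (0.177), without MDA-MB-231 IgG replicate 1 (0.0961) and with median-of-ratios scaling (0.0532). COL1A2, the partner of COL1A1, lay at 0.98 to 1.77 TPM in MDA-MB-231 and was listed at 0 in all 6 HCT116 libraries. COL1A1 was 3.02 to 3.96 times COL1A2 in MDA-MB-231. COL11A2, a cartilage fibril chain, stood at 0.19 and 0.26 TPM in MDA-MB-231 and 3.46 and 4.12 TPM in HCT116 (log2 1.96, limma adjusted p = 1.8e-08). COL27A1, another cartilage chain, was at 12.3 and 13.3 TPM in MDA-MB-231 and 7.09 and 8.59 TPM in HCT116 (log2 -0.65, limma adjusted p = 0.000249).

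Of the beaded filament chains, COL6A1 and COL6A2 were expressed in both lines and COL6A3 in 1. COL6A1 stood at 67.3 and 79.9 TPM in MDA-MB-231 and 75.3 and 77.8 TPM in HCT116, which overlap. COL6A2 stood at 49.2 and 56.4 TPM and at 60.1 and 64.5 TPM (log2 0.24, limma adjusted p = 0.026). The COL6A2 call ended without MDA-MB-231 IgG replicate 1 (limma adjusted p = 0.219), without HCT116 IgG replicate 2 (0.136) and with median-of-ratios scaling (0.229). COL6A3, the large chain of the beaded filament, stood at 8.26 and 8.95 TPM in MDA-MB-231 and 0.27 and 0.34 TPM in HCT116 (log2 -2.88, limma adjusted p = 1.29e-10). Even in MDA-MB-231, COL6A1 was 8.15 to 10.4 times COL6A3.

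Of 9 sets of chains known to assemble together, MDA-MB-231 had every chain at 1 TPM or more under IgG for 3: COL1A1 with COL1A2, COL4A1 with COL4A2, and COL6A1 with COL6A2 and COL6A3. HCT116 had every chain for 0 of the 9 under IgG, with COL4A3 and COL4A6 just below the limit at 0.8 and 0.76 TPM. With H2O2, and with the antibody and H2O2, it had 2: COL4A3 with COL4A4 and COL4A5, and COL4A5 with COL4A6. These 2 sets share COL4A5 and were completed by COL4A3 and COL4A6 alone. Their means were 1.205 and 1.275 TPM with H2O2, and 1.315 and 1.1 TPM with the antibody and H2O2. COL4A6 was at 0.95 TPM in 1 antibody library. Both genes passed the filter only through HCT116 libraries with H2O2, so this gain is a description. Under IgG it lacked COL1A2, COL6A3 and the pair COL4A1 and COL4A2 at that level, and it had COL5A2 without COL5A1 and COL9A2 with COL9A3 but without COL9A1. Several collagens are known to form from a single kind of chain as well, and protein was not measured.

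Among the remaining members, COL13A1, a transmembrane collagen of cell adhesion sites, was the highest collagen gene of MDA-MB-231, at 129 and 130.3 TPM against 13.7 and 10.7 TPM in HCT116 (log2 -3.32, limma adjusted p = 2.85e-11). COL17A1, the transmembrane collagen of hemidesmosomes, stood at 13.9 and 15.3 against 1.99 and 2.02 TPM (log2 -2.38). COL7A1, which forms the anchoring fibrils under epithelia, stood at 54.4 and 62.8 against 2.27 and 2.87 TPM (log2 -4.06, limma adjusted p = 5.51e-11). COL8A1, a network chain known from vessels and the cornea, lay at 30.3 to 41 TPM in MDA-MB-231 and was listed at 0 in all 6 HCT116 libraries. These 4 genes were lower in every HCT116 library than in any MDA-MB-231 library.

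COL9A3, a chain of the collagen that coats cartilage fibrils, was the gene most in favour of HCT116, at 31.6 and 31.9 TPM against 0.1 and 0.12 TPM (log2 4.88, limma adjusted p = 9.18e-12). TCFL5, which overlaps COL9A3, went the other way, at 22.8 to 28.4 TPM in MDA-MB-231 and 13.4 to 16.9 TPM in HCT116, and its part in the COL9A3 value was not tested. COL9A2 was the reverse of COL9A3, with 7.9 and 7.44 TPM in MDA-MB-231 and 3.05 and 2.56 TPM in HCT116 (log2 -1.19). COL16A1 (log2 -1.28), a minor fibril-associated chain, and COL15A1 (log2 -1.44), a multiplexin of basement membrane zones, were also lower in HCT116, at means of 1.01 and 0.03 TPM against 3.85 and 1.81 TPM. COL12A1, which binds to fibrils, stood at 28.6 and 36.6 TPM in MDA-MB-231 and 30.4 and 33.5 TPM in HCT116, and COL18A1, the source of endostatin, at 42.8 and 49.9 against 49.6 and 56 TPM. The libraries of the lines overlapped for both. COL18A1 was called higher in HCT116 without HCT116 IgG replicate 1 (limma adjusted p = 0.0282) or MDA-MB-231 IgG replicate 2 (0.0155), with quantile normalization (0.0268) and with the replicate block (0.047). COL12A1 was called lower in HCT116 without MDA-MB-231 IgG replicate 1 (0.0366).

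With H2O2 in HCT116, 4 of the 25 tested collagen genes rose and 3 fell, against 15.4% and 17.5% of all tested genes (32.9% in all). The 7 called genes make 28% of the 25, close to the share over all genes. The list median was 0.00 on the log2 scale and that of all genes -0.01. COL11A2 stood at 3.46 and 4.12 TPM under IgG and at 8.28 and 7.4 TPM under H2O2 (log2 0.89, SE 0.11, limma adjusted p = 0.000253). The H2O2 libraries both lay above the IgG libraries. COL7A1 stood at 2.27 and 2.87 TPM, then at 4.86 and 3.74 TPM (log2 0.57, SE 0.12, limma adjusted p = 0.00421). COL7A1 also rose without overlap, as did genes not called, such as COL4A5 and COL17A1. The COL7A1 call ended when HCT116 was fitted alone (limma adjusted p = 0.0548).

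COL4A3 and COL4A6 were called higher as well, both at about 1 TPM. COL4A3 stood at 0.81 and 0.79 TPM under IgG and 1.18 and 1.23 TPM under H2O2 (log2 0.29, limma adjusted p = 0.0342), and COL4A6 at 0.58 and 0.94 against 1.37 and 1.18 TPM (log2 0.38, limma adjusted p = 0.0402). These genes passed the filter only through HCT116 libraries with H2O2, so the calls support nothing on their own. The COL4A6 call held under 9 of 19 alternative settings (limma adjusted p from 0.0198 to 0.236, the highest without HCT116 IgG replicate 1) and the COL4A3 call under 11 of 19 (0.00299 to 0.203, the highest with quantile normalization). The COL4A6 call ended without either MDA-MB-231 H2O2 library, either HCT116 H2O2 library or HCT116 IgG replicate 1, and the COL4A3 call without any 1 of the 4 HCT116 libraries compared. Their neighbours COL4A5 and COL4A4 were not called, at 6.21 ± 0.354 and 6.61 ± 0.0778 TPM, and at 1.75 ± 0.184 and 2.1 ± 0.0212 TPM (SD, n = 2).

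The 3 genes that fell with H2O2 in HCT116 were among its most abundant collagens. COL6A1 went from 75.3 and 77.8 TPM to 57.8 and 55.6 TPM (log2 -0.43, SE 0.09, limma adjusted p = 0.00384). Its partner COL6A2 stood at 60.1 and 64.5 TPM, then at 60.2 and 59.3 TPM, and was not called (log2 -0.06, 95% interval -0.25 to 0.14). COL6A1 was above COL6A2 in the IgG libraries and below it in the libraries with H2O2, with ratios from 0.938 to 1.25 over the 6 HCT116 libraries. COL18A1 went from 49.6 and 56 TPM to 42.8 and 38.9 TPM (log2 -0.36, SE 0.09, limma adjusted p = 0.0092). SLC19A1, which overlaps COL18A1, moved with it, from 42.5 and 59 TPM to 34.7 and 31.4 TPM in HCT116, and its part in the COL18A1 value was not tested. In MDA-MB-231, SLC19A1 was at most 0.08 TPM, while COL18A1 lay at 40.5 to 49.9 TPM. COL12A1 went from 30.4 and 33.5 TPM to 24.3 and 25.7 TPM (log2 -0.34, SE 0.10, limma adjusted p = 0.0192). In all 3 genes the H2O2 libraries lay below the IgG libraries, as they did for COL9A3, which was not called. The COL13A1 change, log2 -0.03 with all libraries, was -0.20 without HCT116 IgG replicate 2. Without HCT116 H2O2 replicate 2, the calls of COL12A1 (0.0528) and COL18A1 (0.0735) ended, and 3 of the 7 calls were left. Without HCT116 H2O2 replicate 1, 4 were left and COL12A1 was at 0.101. Without HCT116 IgG replicate 2, COL12A1 (0.115) and COL18A1 (0.0695) ended as well.

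**Figure D3:**
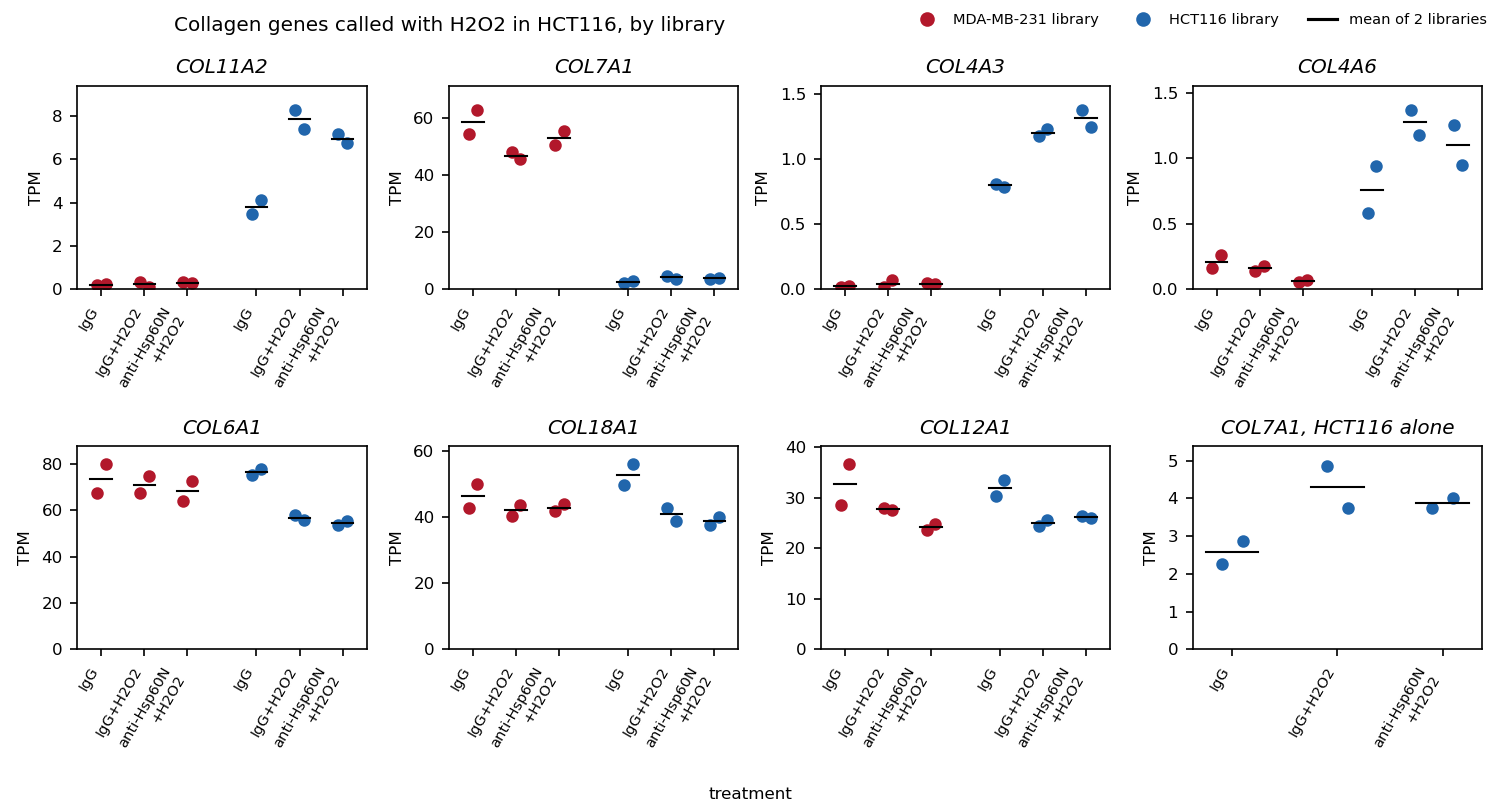
TPM of the 7 collagen genes called with H2O2 in HCT116, with 1 point per library, a line at the mean of 2 libraries and axes starting at 0. The last panel repeats COL7A1 for HCT116 alone, where the IgG libraries lie at 2.27 and 2.87 TPM and the libraries with H2O2 between 3.74 and 4.86 TPM.

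In MDA-MB-231, 0 of the 25 tested collagen genes were called with H2O2, against 2.66% of all genes (1.3% higher and 1.36% lower). At an unadjusted p under 0.05 there were 4: COL1A2, COL7A1, COL16A1 and COL12A1, all with lower values under H2O2. The value was below 0 for 19 of the 25 (median -0.06), against 5783 of 13956 over all genes (median 0.03). The genes are not replicates, and the IgG libraries differed in collagen sum (595 and 665 TPM, against 576 and 591 TPM with H2O2). COL4A2 with H2O2 (62.45 and 65.25 TPM) lay between its IgG libraries (60.5 and 72 TPM). COL7A1 and COL1A2 fell without overlap, as did other genes not called, such as COL5A1, COL12A1, COL13A1 and COL16A1. How many of all genes are so separated was not counted, so this sets no gene apart. COL7A1 stood at 54.4 and 62.8 TPM under IgG and 47.9 and 45.5 TPM under H2O2 (log2 -0.32, 95% interval -0.58 to -0.06, limma adjusted p = 0.191). COL1A2 stood at 1.48 and 1.77 TPM, then at 1.19 and 0.98 TPM (log2 -0.33, limma adjusted p = 0.126). COL11A2 was at 0.33 and 0.13 TPM under H2O2, from 0.19 and 0.26 TPM. Without MDA-MB-231 IgG replicate 1, COL12A1 was called lower (log2 -0.39, limma adjusted p = 0.0458). Its libraries stood at 28.6 and 36.6 TPM under IgG and 27.9 and 27.6 TPM under H2O2.

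The H2O2 change differed between the lines for 2 of the 25 genes, with a higher value in HCT116 for both, against 7.65% of all genes higher, 9.72% lower and 17.4% in all. The difference of the changes was 0.89 on the log2 scale for COL7A1 (SE 0.16, limma adjusted p = 0.00576), which had opposite signs in the lines. It was 0.88 for COL11A2 (SE 0.16, limma adjusted p = 0.00477), whose level in MDA-MB-231 was at most 0.33 TPM. COL11A2 passed the filter through HCT116 alone, and on log2(TPM + 1) a change at so low a level is pressed towards 0. The difference for COL11A2 thus mostly restates its change in HCT116. The COL11A2 call ended with a pseudocount of 0.1 (0.0805). COL6A1 did not pass (difference -0.38, 95% interval -0.65 to -0.11, limma adjusted p = 0.0542). The COL6A1 difference was called without MDA-MB-231 IgG replicate 2 (0.0224), without either antibody library of that line (0.0482 and 0.0483) and with a filter of 5 TPM (0.0435).

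**Figure D4:**
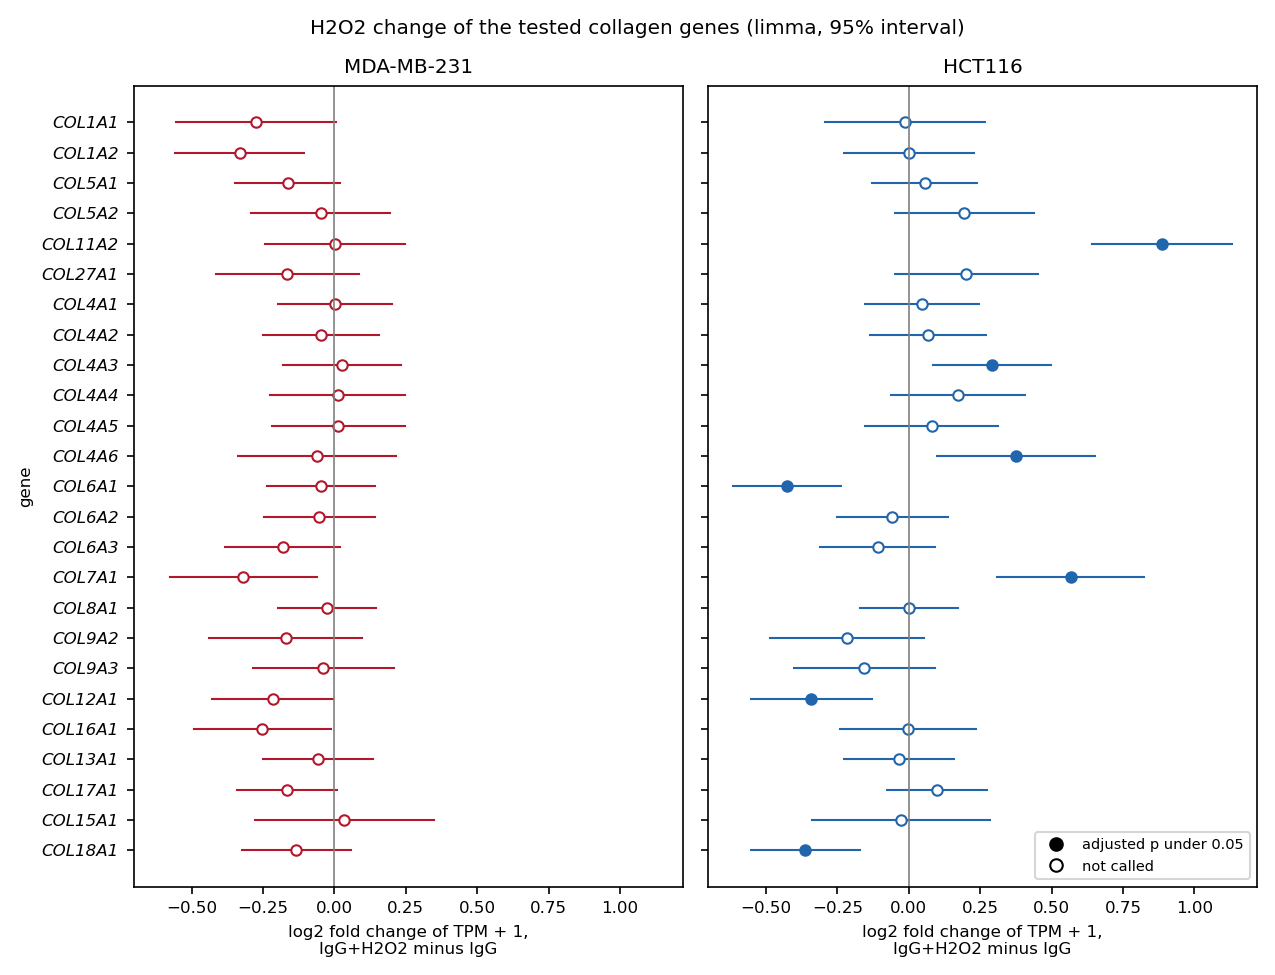
Log2 fold change of TPM + 1 with H2O2 for the 25 tested collagen genes in each line, with 95% intervals from limma. Filled points have an adjusted p under 0.05: 7 genes in HCT116 and 0 in MDA-MB-231. COL7A1 lies at -0.32 in MDA-MB-231 and at 0.57 in HCT116.

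The antibody under H2O2 called 0 of the 25 collagen genes in either line, against 0.0143% of all genes in MDA-MB-231 (all higher) and 0.0215% in HCT116 (0.00717% higher and 0.0143% lower). At an unadjusted p under 0.05 there were 2 in MDA-MB-231 and 0 in HCT116. COL8A1 stood at 39.2 and 39.9 TPM with IgG and H2O2 and at 30.3 and 33.9 TPM with the antibody and H2O2 in MDA-MB-231 (log2 -0.29, 95% interval -0.47 to -0.12, limma adjusted p = 0.261). COL16A1 stood at 2.95 and 3.2 TPM, then at 3.93 and 4.27 TPM (log2 0.32, 95% interval 0.08 to 0.56, limma adjusted p = 0.294). The libraries did not overlap for these 2 genes, nor for others such as COL4A1, COL9A2, COL12A1 and COL13A1. How many of all genes are so separated by the antibody was not counted. In HCT116 the changes ran from -0.15 for COL11A2, at 7.15 and 6.77 TPM with the antibody, to 0.15 for COL9A2. The antibody change differed between the lines for 0 of the 25 at the threshold, against 0.0287% of all genes (0.0143% in each direction), and for 2 at an unadjusted p under 0.05.

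Against IgG, the antibody with H2O2 gave 6 calls in HCT116, 3 higher and 3 lower, against 16.8% and 17.5% of all genes (34.3% in all). This comparison shares its IgG libraries with that of H2O2 alone. COL11A2 (log2 0.74), COL7A1 (log2 0.46) and COL4A3 (log2 0.36) were higher, and COL6A1 (log2 -0.48), COL18A1 (log2 -0.43) and COL12A1 (log2 -0.27) lower. COL6A1 was at 53.6 and 55.3 TPM in these libraries, and COL18A1 at 37.6 and 40 TPM. Other settings added calls. COL6A3, at most 0.34 TPM in HCT116, was called lower with a pseudocount of 0.1 (log2 -0.80, limma adjusted p = 0.015). It was also called lower with quantile normalization (0.0409), and COL17A1 higher with the line fitted alone (0.0497). The COL13A1 change, log2 -0.08 with all libraries, was -0.25 without HCT116 IgG replicate 2. The COL12A1 call (limma adjusted p = 0.0463) held under 7 of 19 settings, ended without any 1 of 10 libraries and reached 0.226 without HCT116 IgG replicate 2. That of COL7A1 (0.0119) ended without HCT116 IgG replicate 1 (0.0821), without antibody replicate 2 (0.0746) and with the line fitted alone (0.0847). COL4A3, at 1.38 and 1.25 TPM here, passed the filter only through HCT116 libraries with H2O2, so its call supports nothing on its own. The COL4A3 call (0.0125) ended without antibody replicate 1 (0.0747), with a pseudocount of 0.1 (0.0609) and with quantile normalization (0.0619).

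In MDA-MB-231, COL12A1 alone was called against IgG, against 1.5% of all genes higher, 1.9% lower and 3.4% in all. COL12A1 stood at 28.6 and 36.6 TPM under IgG and 23.7 and 24.8 TPM with the antibody and H2O2 (log2 -0.41, limma adjusted p = 0.0461). The call held under 7 of 19 settings and ended without any 1 of 9 libraries, with the highest p, 0.19, without MDA-MB-231 IgG replicate 2. COL8A1, at 39.6 and 41 TPM under IgG, did not pass (log2 -0.32, limma adjusted p = 0.0511).

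The genes that make, process and bind collagen were followed as a list of 46 genes, of which 37 were tested. Under IgG, 12 of the 37 were higher and 19 lower in HCT116, 83.8% in all against 82.8% of all tested genes (45.5% higher and 37.3% lower). TGM2, a transglutaminase that crosslinks matrix proteins, stood at 318 and 326 TPM in MDA-MB-231 and 11.8 and 13.3 TPM in HCT116 (log2 -4.58). Of the lysyl oxidases, which crosslink collagen, LOXL2 stood at 195 and 204 against 15.3 and 13.9 TPM (log2 -3.69), and LOX at 34.8 and 40.7 against 0.28 and 0.23 TPM (log2 -4.94). The other 3 of this family in the list, named here after their values were seen, were not alike: LOXL4 was lower in HCT116 (log2 -4.29), while LOXL1 (log2 0.60) and LOXL3 (log2 0.73) were higher. FKBP10, a chaperone of procollagen in the endoplasmic reticulum, was the reverse, at 0.36 and 0.17 against 64.1 and 67.6 TPM (log2 5.73). LOX and FKBP10 passed the filter through 1 line alone, so their calls are descriptions.

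With H2O2 in HCT116, 5 of the 37 rose and 6 fell, 29.7% in all against 32.9% of all tested genes. In MDA-MB-231 0 were called (3 at an unadjusted p under 0.05), against 2.66% of all genes. ITGA2, a chain of a collagen-binding integrin, stood at 11.8 TPM in both IgG libraries and at 23.1 and 26.3 TPM with H2O2 in HCT116 (log2 1.01, limma adjusted p = 2.51e-05). CTAGE5, which helps to load procollagen into transport carriers, went from 21 and 20 TPM to 34.8 and 37.4 TPM (log2 0.79, limma adjusted p = 2.74e-05). LOXL2 went from 15.3 and 13.9 TPM to 18.9 and 20.1 TPM (log2 0.40, limma adjusted p = 0.00089), and TGM2 fell from 11.8 and 13.3 TPM to 8.47 and 8.19 TPM (log2 -0.54, limma adjusted p = 0.000148). The change differed between the lines for these 4 genes. In all, 4 of the 37 differed with a higher and 5 with a lower value in HCT116, 24.3% of the list against 17.4% of all tested genes (7.65% higher and 9.72% lower). The antibody under H2O2 called 0 of the 37 in either line, with 5 at an unadjusted p under 0.05 in MDA-MB-231 and 3 in HCT116, against 0.0143% and 0.0215% of all genes called. Against IgG, antibody with H2O2 gave 6 higher and 6 lower in HCT116, 32.4% of the list against 34.3% of all genes. In MDA-MB-231 it gave 0 calls (7 at an unadjusted p under 0.05), against 3.4% of all genes. In bulk RNA, fewer cells that express a gene and less of its RNA per cell cannot be told apart.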

How the data were processed

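Gene expression of 12 libraries was deposited by the authors as TPM in 1 table of 23686 genes. Per the submitters' processing notes, bcl2fastq 2.20, STAR, RSEM and hg19 were used; no source used here gives other versions or the annotation. Columns were matched to samples by their labels, and 0 were left unmatched. Genes with at least 1 TPM in at least 2 libraries (13956) were fitted as 6 group means on log2(TPM + 1) with limma 3.58.1 in R 4.3.3, letting the variance follow the mean level, 6 residual degrees of freedom and a prior of 4.63, two-sided, with Benjamini-Hochberg adjustment over all genes kept and a threshold of 0.05. A fold change on this scale understates the change of low genes. No fold change is given for a gene with a group at 0. On data simulated for H2O2 in HCT116 over 13956 genes, the fit recovered 95% of 2-fold and 100% of 4-fold changes of TPM + 1, with 14 false calls. For a low gene such a change is a larger fold of TPM. Far fewer genes were changed in the simulation than were called in the data. Replicates of a group had 2.19% to 3.49% identical values. The genes reported are all collagen genes, those with a mean of at least 5 TPM in a group or a call within a line with their values, and up to 4 genes of smallest p per comparison from a list of collagen synthesis, processing and receptor genes. Members and lists were chosen with earlier results of these data known. Alternatives were a pseudocount of 0.1, no filter, a filter of 5 TPM, median-of-ratios scaling, quantile normalization, a replicate block, each line alone and each library left out. Promoters came from RefSeq (GRCh38.p14). Python 3.11.15 and matplotlib 3.10.9 made the plots.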

Additional observations from a re-analysis of the deposited data

Results flagged for a closer look

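The H2O2 change differed between the lines by the test of the difference itself (limma, HCT116 minus MDA-MB-231, on the log2 scale) for 2 collagen genes and for 9 of the 37 pathway genes, of which the 4 with the smallest p are given. The difference was 0.88 for COL11A2 and 0.89 for COL7A1. COL11A2 passed the filter through HCT116 alone and was at most 0.33 TPM in MDA-MB-231, so its difference mostly restates the change in HCT116. Its call ended with a pseudocount of 0.1 (limma adjusted p = 0.0805). It was 0.83 for ITGA2 (limma adjusted p = 0.00219), 0.65 for CTAGE5 (0.00236), 0.51 for LOXL2 (0.00393) and -0.46 for TGM2 (0.0063). LOXL2 went from 195 and 204 TPM to 181 and 188 TPM in MDA-MB-231, and ITGA2 from 65.7 and 81.3 TPM to 80.8 and 84.4 TPM.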

How the results depend on the processing

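Over 54 called values of single genes and 995 values under the alternatives, 934 kept their direction and call, 61 kept their direction and lost the call, and 0 reversed. Filters, the replicate block, a line fitted alone and a left-out library of another group cannot change a fold change. The 0 reversals were thus in part fixed in advance. Many of the 54 were differences between the lines under IgG, where genes on in 1 line had to differ. Most of the lost calls were within a line. The count of collagen genes called for the antibody with H2O2 against IgG in MDA-MB-231, 1, became 0 with a pseudocount of 0.1, with no filter and with the line fitted alone, and 2 with a filter of 5 TPM, median-of-ratios scaling or quantile normalization. COL8A1 was the gene added. The cause was not tested. The count for the difference of the H2O2 change, 2, became 1 with a pseudocount of 0.1, 3 with no filter (COL4A3 was added, limma adjusted p = 0.038) and 3 with a filter of 5 TPM (COL6A1 was added, 0.0435). With 1 library left out in turn, the counts ran from 3 to 7 for H2O2 in HCT116, from 0 to 1 for H2O2 in MDA-MB-231, from 0 to 1 for the antibody with H2O2 against IgG in MDA-MB-231, from 4 to 6 for that comparison in HCT116, from 2 to 3 for the difference of the H2O2 change and from 20 to 23 for the lines under IgG. They stayed at 0 for the antibody under H2O2 in each line and its difference between the lines. A lone library of a group was assumed to vary like the other groups. Same-numbered replicates deviated together at -0.127 to 0.164 over 6 pairs of groups. Whether they share more than a number is not stated, and weak correlations over all genes cannot settle it. In MDA-MB-231 the collagen sum was higher in replicate 2 under IgG (595 and 665 TPM), H2O2 (576 and 591) and antibody with H2O2 (538 and 584). In HCT116 it was higher in replicate 2 under IgG and antibody with H2O2, and lower under H2O2 (276.5 and 263.6 TPM). With the replicate number as a block, H2O2 in HCT116 had 5 calls against 7, with COL4A6 at a limma adjusted p of 0.0653 and COL4A3 at 0.059, the difference of the H2O2 change 3 against 2 (COL6A1 was added), and the lines under IgG 23 against 22 (COL18A1 was added). IgG and H2O2 deviations of the same number in HCT116 correlated at -0.127, and with those numbers crossed, a choice made after seeing the data, the count was 5. Median-of-ratios scaling moved the summed collagen TPM under IgG from 630.2 to 664 in MDA-MB-231 and from 306 to 294 in HCT116. TPM keeps no depth, so precision rests on 2 libraries a group.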
